A study of Mus musculus with 12 samples.

Results

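The genes described here are 42 genes of the mouse cell cycle and of DNA replication, picked by symbol out of 16970 genes in a table of liver RNA. They comprise 5 G1 cyclins and transcription factors, 8 genes of origin licensing and the Mcm2-7 helicase, 7 of nucleotide supply, the replication clamp and S phase chromatin, and 22 mitotic genes. All 42 were found, and 35 passed a filter of at least 1 FPKM (fragments per kilobase of gene, scaled to sequencing depth) in at least 3 of 12 libraries. The 7 others, Ccne2, Cdc6, Hells, Ttk, Bub1, Cenpe and Cenpf, reached at most 0.828 FPKM in any library and were not tested. The livers came from mice with impaired bile flow (cholestasis) and fall into 4 groups of 3 libraries, and hyodeoxycholic acid (HDCA), a bile acid, was the agent given. Abcb4KO_HDCA stands for Abcb4-/- mice that were 60 days old and had HDCA at 100 mg/kg for 21 days, and Abcb4KO for the same knockout without HDCA. Abcb4 exports phosphatidylcholine into bile. BDL_HDCA stands for mice with a bile duct ligation of 7 days that had HDCA at 100 mg/kg for 4 days after a wait of 3 days, and BDL for the ligation without HDCA. The titles of the knockout libraries read MDR and MDR_H, and they are taken as Abcb4KO because the series description names no other second model. The labels give no strain, sex or vehicle, no age for the ligated mice, and do not say that each replicate is an animal of its own, so the spread behind the p-values may be technical. Wild-type and unoperated livers were not analysed here.

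The cell cycle runs from G1, in which cyclin D and E partners release E2F transcription factors, through S phase, in which DNA is copied, to G2 and mitosis. Before S phase, Cdc6 and Cdt1 load the Mcm2-7 helicase on replication origins, and the clamp Pcna then holds the polymerases on DNA. Genes of G1 and S phase are commonly controlled through E2F sites, and mitotic genes through a CCAAT box and a cell cycle homology region (CHR). The CHR is bound by the DREAM complex and by the MuvB complex with B-Myb and Foxm1. Most hepatocytes of the adult liver are outside the cycle, and they, cholangiocytes and the other liver cells can enter it after injury. In bulk RNA of this kind, fewer cycling cells and less RNA per cell cannot be told apart.

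Promoters were read because, among the BDL-model libraries, the same pair was lowest for 40 of the 42 genes. The pair was also lowest for 52.5% of all genes tested. Whether the motifs have a part in this was not tested. RefSeq promoters (GRCm38.p6, 250 bases before to 50 after the start) were held for 34 of the 42 genes. They were searched on both strands for E2F motifs (TTTCCCGC, TTTGGCGC, TTTCGCGC or TTTGCCGC), CHR motifs (TTTGAA or TTCGAA) and CCAAT. An E2F motif was present for 8 of 16 G1 and S phase genes (50%), 1 of 18 mitotic genes (5.56%) and 2.6% of 27025 genes in the promoter table. A CHR motif was present for 2 of the 16 (12.5%), 14 of the 18 mitotic genes (77.8%) and 21.7% of all genes. CCAAT was present for 9 of the 16 (56.2%), 16 of the 18 (88.9%) and 41.1% of all genes. A match is a description of letters and not a bound site. The 160 bases before the start follow for a pair of helicase genes with E2F matches, for Cdk1, the one mitotic gene with such a match, for Cdc20 and Prc1 with CCAAT and CHR matches, and for Birc5, in whose stretch none of these letters was found. For Prc1 the last of its 2 listed starts was used. Capitals mark the matches, the longer runs in Mcm5 and Mcm6 being E2F motifs that overlap on opposite strands, and ATTGG is CCAAT on the other strand.
Mcm5 (chr8:75109349-75109508, plus strand): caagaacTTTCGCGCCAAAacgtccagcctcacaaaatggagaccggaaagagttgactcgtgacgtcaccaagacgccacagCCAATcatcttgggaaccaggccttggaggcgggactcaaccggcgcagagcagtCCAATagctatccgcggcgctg
Mcm6 (chr1:128359706-128359865, minus strand): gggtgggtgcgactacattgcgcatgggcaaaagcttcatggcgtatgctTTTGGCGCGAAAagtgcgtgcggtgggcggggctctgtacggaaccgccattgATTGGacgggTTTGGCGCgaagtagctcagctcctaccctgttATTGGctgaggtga
Cdk1 (chr10:69352913-69353072, minus strand): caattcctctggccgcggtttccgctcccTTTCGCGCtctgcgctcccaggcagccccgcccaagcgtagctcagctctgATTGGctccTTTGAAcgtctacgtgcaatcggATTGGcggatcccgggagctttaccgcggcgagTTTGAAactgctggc
Cdc20 (chr4:118437344-118437503, minus strand): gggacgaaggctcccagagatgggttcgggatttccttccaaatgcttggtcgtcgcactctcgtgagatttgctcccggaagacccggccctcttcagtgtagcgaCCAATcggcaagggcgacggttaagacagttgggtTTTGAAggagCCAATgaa
Prc1 (chr7:80294316-80294475, plus strand): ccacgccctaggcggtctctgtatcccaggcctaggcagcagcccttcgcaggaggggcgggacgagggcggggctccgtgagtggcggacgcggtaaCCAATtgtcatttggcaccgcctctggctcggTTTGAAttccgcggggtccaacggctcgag
Birc5 (chr11:117849077-117849236, plus strand): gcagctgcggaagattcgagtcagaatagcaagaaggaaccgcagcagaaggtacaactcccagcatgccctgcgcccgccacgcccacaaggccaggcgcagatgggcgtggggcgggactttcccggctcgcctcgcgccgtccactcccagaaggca

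Depth was even, at 34260782 to 40427855 reads per library as recovered from the FPKM values. Abcb4 itself was at 129 to 165 FPKM in Abcb4KO_HDCA, 150 to 181 in Abcb4KO, 72.1 to 178 in BDL_HDCA and 52.8 to 168 in BDL, so its level does not separate the models and checks no label. Summed FPKM of 4 Y-linked genes was at most 0.016 in 5 of the 6 Abcb4KO-model libraries, and 16.1 to 20.1 in Abcb4KO replicate 1 and the BDL-model libraries. Hepatocyte markers were high everywhere, with sums of 37448 to 61890 FPKM over 12 of 12 genes, which is the labelled tissue. Of the BDL-model libraries, BDL_HDCA replicate 2 and BDL replicate 1 differed widely from the remaining 4, so results that rest on them are given with and without them.

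The cell cycle genes were low in the same pair of libraries. Of the 42 genes, 6 had their lowest FPKM of all 12 libraries in BDL_HDCA replicate 2 and 35 in BDL replicate 1, against 30.3% and 42.7% of the 10805 genes tested. The remaining gene, Ccne1, was lowest in Abcb4KO_HDCA replicate 1. BDL_HDCA replicate 2 and BDL replicate 1 were the lowest pair among the 6 BDL-model libraries for 40 of the 42 genes (95.2%), against 5673 of the genes tested (52.5%). The exceptions were Tk1 and Ccne2. At the other end, BDL_HDCA replicate 1 had the highest value for 9 genes, BDL_HDCA replicate 3 for 3 and BDL replicate 3 for 27. The Abcb4KO-model libraries thus lay between for most of these genes, and the BDL-model libraries held both the lowest and the highest levels.

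Reads of the 42 genes per 1000000 reads of the library give a similar order, though not the same. They came to 341, 441 and 373 in Abcb4KO_HDCA and 331, 538 and 457 in Abcb4KO. They came to 617, 146 and 504 in BDL_HDCA and 101, 486 and 671 in BDL. For the 22 mitotic genes alone they were 43.7, 95.9 and 101 in Abcb4KO_HDCA, 76.0, 112 and 101 in Abcb4KO, 189, 44.5 and 143 in BDL_HDCA, and 8.92, 148 and 213 in BDL. Over the 42 genes, Abcb4KO replicate 2 was thus above BDL_HDCA replicate 3 and BDL replicate 2. Over the mitotic genes, Abcb4KO_HDCA replicate 1 was slightly below BDL_HDCA replicate 2. In BDL replicate 1 the mitotic genes rested on 349 reads in all, which limits the precision of single genes there. Ttk and Bub1 had 0 reads in that library, and a count of 0 allows up to 3 reads, or 0.0242 and 0.0176 FPKM. On the log2(FPKM + 1) scale the median of all genes tested was 2.56 in BDL_HDCA replicate 2 and 2.48 in BDL replicate 1, and 2.81 to 2.88 in the other BDL-model libraries. The median of the 42 cell cycle genes was 0.78 and 0.23 in the same pair, and 1.77 to 2.21 in the others.

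**Figure D1:**
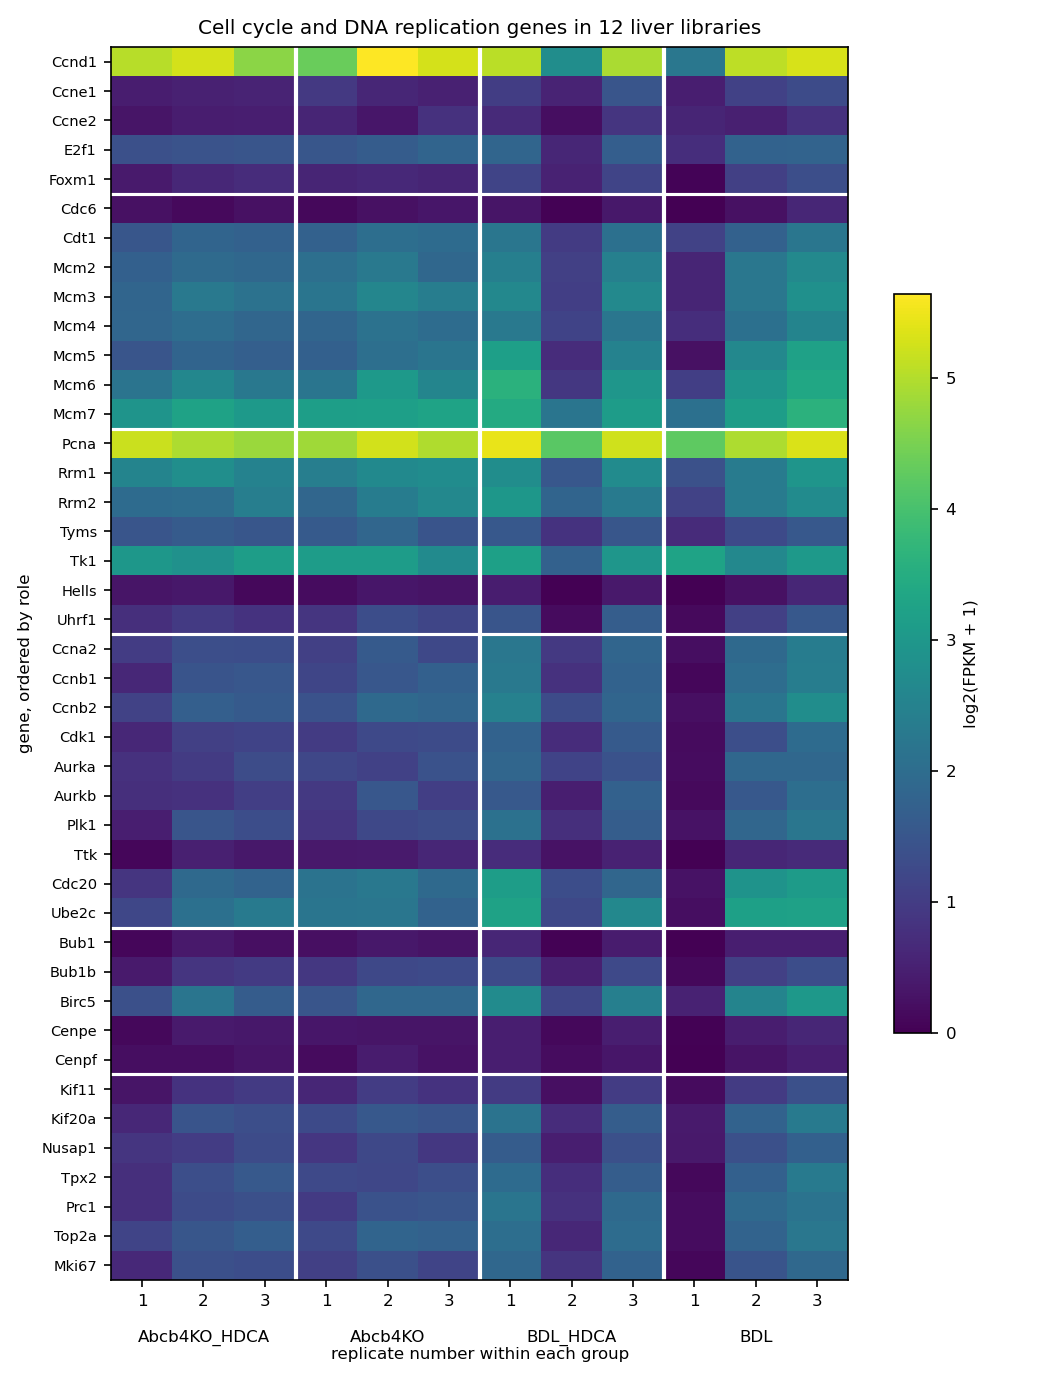
Level of each of the 42 genes (rows, ordered by role) in each of the 12 libraries (columns, by group), as log2(FPKM + 1) on a colour scale from 0. BDL_HDCA replicate 2 and BDL replicate 1 are the darkest of the 6 BDL-model columns for 40 of the 42 genes, Tk1 and Ccne2 being the exceptions, and BDL replicate 3 is the highest library for 27 genes.

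Among the G1 genes, Ccnd1 (GRCm38 chromosome 7, 144929931 to 144939925), which encodes cyclin D1, the partner of Cdk4 and Cdk6 that responds to mitogens, was the most abundant by FPKM. Ccnd1 was at 31.8, 37.9 and 24.3 FPKM in Abcb4KO_HDCA, 19.4, 49.1 and 38.2 in Abcb4KO, 32.3, 5.82 and 29.3 in BDL_HDCA, and 3.74, 32.9 and 38.3 in BDL. The low pair was at 5.82 and 3.74 FPKM, and the other 10 libraries lay between 19.4 and 49.1, with the highest in Abcb4KO replicate 2. E2f1, a transcription factor that turns on S phase genes, was at 1.61, 1.74 and 1.82 FPKM in Abcb4KO_HDCA, 1.87, 2.11 and 2.54 in Abcb4KO, 2.61, 0.534 and 2.20 in BDL_HDCA, and 0.667, 2.41 and 2.50 in BDL. All 3 Abcb4KO_HDCA values of E2f1 were under the lowest Abcb4KO value, the one gene of the 42 whose groups did not overlap in that comparison. Foxm1, which drives mitotic genes, was at 0.321, 0.546 and 0.656 FPKM in Abcb4KO_HDCA, 0.505, 0.581 and 0.492 in Abcb4KO, 1.24, 0.448 and 1.23 in BDL_HDCA, and 0.0409, 1.09 and 1.57 in BDL. BDL replicate 1 held 0.0409 FPKM of Foxm1, and the highest values were those of the other BDL-model libraries outside the low pair. Ccne1, cyclin E1, which activates Cdk2 at the start of S phase, was at 0.358, 0.438 and 0.467 FPKM in Abcb4KO_HDCA, 0.924, 0.519 and 0.425 in Abcb4KO, 1.04, 0.487 and 1.81 in BDL_HDCA, and 0.391, 1.14 and 1.46 in BDL. Its order differed from that of most other genes here, since its lowest values included all of Abcb4KO_HDCA.

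The helicase genes Mcm2 to Mcm7 encode the ring of subunits that unwinds DNA at the fork. Mcm7 was the most abundant subunit per length in 11 of 12 libraries, the exception being BDL_HDCA replicate 1, where Mcm6 was higher. Mcm7 was at 6.60, 8.60 and 7.13 FPKM in Abcb4KO_HDCA, 7.99, 8.17 and 8.63 in Abcb4KO, 9.92, 3.60 and 7.67 in BDL_HDCA, and 3.22, 7.84 and 11.4 in BDL. Mcm6 was at 3.51, 5.08 and 3.83 FPKM in Abcb4KO_HDCA, 3.57, 7.31 and 4.98 in Abcb4KO, 11.2, 0.882 and 6.78 in BDL_HDCA, and 1.06, 6.70 and 9.33 in BDL. Mcm3 was at 2.60, 3.84 and 3.38 FPKM in Abcb4KO_HDCA, 3.56, 5.04 and 4.25 in Abcb4KO, 5.19, 1.06 and 5.34 in BDL_HDCA, and 0.504, 3.75 and 6.15 in BDL. In each, BDL_HDCA replicate 2 and BDL replicate 1 were lowest. All 3 Abcb4KO_HDCA values of Mcm6 lay below the 4 remaining BDL-model values, while for Mcm7 and Mcm3, and for Abcb4KO in all of them, the values overlapped the remaining BDL-model ones. Mcm5 (GRCm38 chromosome 8, 75109569 to 75128439), whose promoter with overlapping E2F motifs is shown above, spread most within this ring, its highest BDL value being 45.2 times that of BDL replicate 1. Mcm5 was at 1.79, 2.55 and 2.28 FPKM in Abcb4KO_HDCA, 2.31, 3.15 and 3.60 in Abcb4KO, 8.15, 0.638 and 4.63 in BDL_HDCA, and 0.187, 5.22 and 8.44 in BDL. The highest of the 6 Abcb4KO-model values of Mcm5, 3.60 FPKM, was below the 4.63 to 8.44 of the BDL-model libraries outside the low pair. The ratio of the highest to the lowest Mcm2-7 subunit by FPKM was 2.59 to 3.68 in the Abcb4KO-model libraries, 5.65 in BDL_HDCA replicate 2, 17.2 in BDL replicate 1 and 2.11 to 2.88 in the other BDL-model libraries. Of the licensing factors, Cdt1 ranged over 0.983 to 3.66 FPKM and Cdc6, not tested, over 0.00533 to 0.522.

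Among the S phase supply genes Tk1 was the exception to the pattern. Pcna (GRCm38 chromosome 2, 132249162 to 132253314), the sliding clamp, was the most abundant of the 42 genes by FPKM, averaging 31.1 over the libraries. Pcna was at 35.6, 30.1 and 27.0 FPKM in Abcb4KO_HDCA, 27.7, 37.5 and 30.6 in Abcb4KO, 43.0, 17.4 and 37.0 in BDL_HDCA, and 17.8, 30.1 and 39.0 in BDL. BDL_HDCA replicate 2 and BDL replicate 1 were lowest, and BDL_HDCA replicate 1 was highest. Rrm1, the large subunit of ribonucleotide reductase, which makes deoxyribonucleotides, was at 4.84, 5.92 and 4.67 FPKM in Abcb4KO_HDCA, 4.37, 5.43 and 5.73 in Abcb4KO, 5.83, 1.89 and 5.58 in BDL_HDCA, and 1.64, 4.09 and 6.71 in BDL. Tk1, thymidine kinase of the salvage pathway, was at 7.00, 6.26 and 7.83 FPKM in Abcb4KO_HDCA, 7.65, 7.68 and 5.55 in Abcb4KO, 8.26, 2.36 and 6.79 in BDL_HDCA, and 8.63, 5.18 and 7.29 in BDL. BDL_HDCA replicate 2 held the lowest Tk1 value of the 12 libraries, and BDL replicate 1 the highest, beside the lowest value of 35 other genes. Tk1 divided by Mcm6, both in FPKM, was 2.67 in BDL_HDCA replicate 2, 8.14 in BDL replicate 1 and 0.740 to 2.14 in the other 10 libraries. Uhrf1 and Hells, which act on DNA methylation and chromatin at replication, were at 0.115 and 0.0108 FPKM in BDL_HDCA replicate 2 and at 0.110 and 0.00876 in BDL replicate 1.

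No mitotic gene averaged more FPKM over the 12 libraries than Ube2c, at 4.18. Ube2c, the ubiquitin-conjugating enzyme of the anaphase-promoting complex, was at 1.28, 3.25 and 4.03 FPKM in Abcb4KO_HDCA, 3.58, 3.64 and 2.45 in Abcb4KO, 8.57, 1.35 and 5.20 in BDL_HDCA, and 0.164, 8.23 and 8.36 in BDL. Cdc20, an activator of that complex, was at 0.834, 2.84 and 2.47 FPKM in Abcb4KO_HDCA, 3.47, 3.77 and 2.83 in Abcb4KO, 7.80, 1.53 and 2.64 in BDL_HDCA, and 0.215, 6.42 and 7.54 in BDL. Ccnb2, a B-type cyclin that partners Cdk1, was at 1.17, 2.26 and 2.01 FPKM in Abcb4KO_HDCA, 1.67, 2.81 and 2.61 in Abcb4KO, 4.61, 1.43 and 2.56 in BDL_HDCA, and 0.166, 3.58 and 5.83 in BDL. In all of these BDL replicate 1 was lowest, and the highest values came from BDL replicates 2 and 3 and BDL_HDCA replicate 1. Birc5, survivin, a subunit of the chromosomal passenger complex with Aurkb, was at 1.59, 3.55 and 2.14 FPKM in Abcb4KO_HDCA, 1.80, 2.72 and 2.70 in Abcb4KO, 5.61, 1.26 and 4.45 in BDL_HDCA, and 0.446, 4.85 and 7.04 in BDL. Bub1b, a kinase-like protein of the spindle checkpoint, was at 0.333, 0.836 and 0.937 FPKM in Abcb4KO_HDCA, 0.890, 1.33 and 1.40 in Abcb4KO, 1.45, 0.402 and 1.36 in BDL_HDCA, and 0.0832, 1.10 and 1.53 in BDL. Top2a, the topoisomerase that untangles sister chromatids, was at 1.23, 1.86 and 2.21 FPKM in Abcb4KO_HDCA, 1.36, 2.56 and 2.39 in Abcb4KO, 3.11, 0.546 and 3.00 in BDL_HDCA, and 0.146, 2.48 and 3.74 in BDL. BDL replicates 2 and 3 and BDL_HDCA replicates 1 and 3 were above the 6 Abcb4KO-model values for Birc5, and overlapped them for Bub1b and Top2a. Kif20a, a kinesin of the central spindle, was at 0.545, 1.75 and 1.55 FPKM in Abcb4KO_HDCA, 1.42, 1.95 and 1.78 in Abcb4KO, 3.41, 0.635 and 2.15 in BDL_HDCA, and 0.320, 2.44 and 3.93 in BDL, and Prc1, which bundles midzone microtubules, ranged over 0.137 to 3.59. Mki67 (GRCm38 chromosome 7, 135689784 to 135716361), the proliferation marker Ki-67, was at 0.561, 1.60 and 1.53 FPKM in Abcb4KO_HDCA, 1.11, 1.60 and 1.25 in Abcb4KO, 2.67, 0.791 and 2.44 in BDL_HDCA, and 0.0734, 1.78 and 2.76 in BDL. These followed one order: the low pair was at the bottom, except where Abcb4KO_HDCA replicate 1 fell below BDL_HDCA replicate 2, and the other BDL-model libraries were mostly at the top. In Abcb4KO_HDCA replicate 1, Mki67 rested on 194 reads and Ube2c on 41, against 29 and 6 in BDL replicate 1.

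The summed FPKM of the 22 mitotic genes divided by that of Mcm2 to Mcm7 was 0.739 to 1.49 in Abcb4KO_HDCA and 1.13 to 1.22 in Abcb4KO. The ratio was 1.42 to 1.76 in BDL_HDCA and 0.503, 1.80 and 1.65 in BDL. In BDL_HDCA replicate 2 both sums were low and the ratio was not, while in BDL replicate 1 the mitotic genes were also low relative to the helicase.

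**Figure D2:**
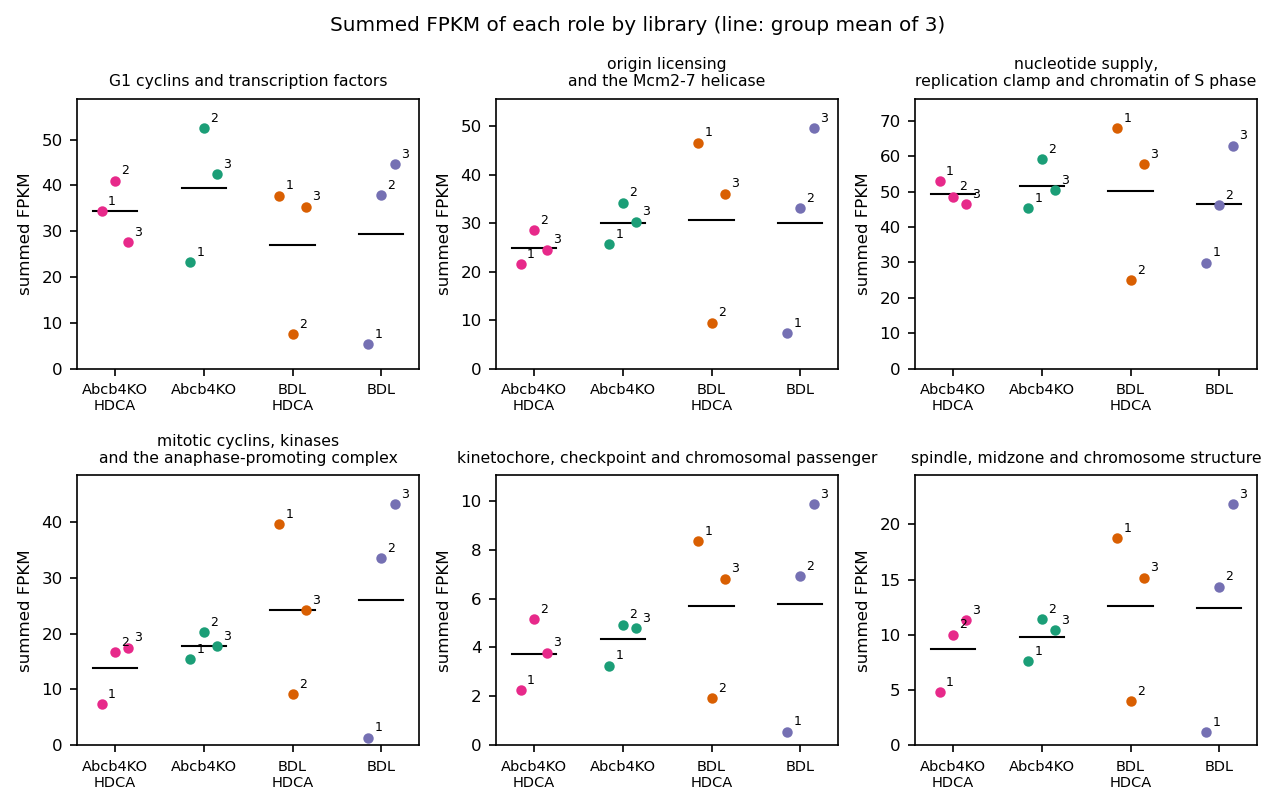
Summed FPKM of the genes of each role (one panel per role, vertical axes from 0) in each library, with replicate numbers beside the points and groups along the horizontal axis. BDL_HDCA replicate 2 and BDL replicate 1 are the lowest in each panel, except that Abcb4KO_HDCA replicate 1 falls below BDL_HDCA replicate 2 for the mitotic cyclins and kinases (7.33 against 9.08 FPKM), and the mitotic cyclin and kinase sum is 1.34 FPKM in BDL replicate 1 against 33.5 and 43.2 in BDL replicates 2 and 3.

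Several marker lists of other cells were low in the same libraries, and others were not. Macrophage and Kupffer markers (14 of 14 genes read) summed to 398 FPKM in BDL_HDCA replicate 2 and 382 in BDL replicate 1, and to 793 to 1173 in the other BDL-model libraries. Cholangiocyte markers (10 of 10) summed to 141 and 130 in this pair and to 253 to 421 in the others, with no defining marker at 0 in it. T and NK markers (11 of 12) summed to 1.78 and 1.81 in the pair and to 3.76 to 4.66 in the others, with 1 marker at 0 in each library of the pair. Endothelial markers (10 of 10) summed to 122 FPKM in BDL_HDCA replicate 2, near the 91.3 to 140 of the others, and to 29.9 in BDL replicate 1. Erythroid markers (11 of 12) summed to 173 in BDL_HDCA replicate 2 and 95.4 in BDL replicate 1, against 196 to 320 in the others. Stellate cell and fibroblast markers (12 of 12) were low in BDL replicate 1 alone, at 69.5 FPKM, with 137 in BDL_HDCA replicate 2 and 106 to 236 in the others. The B and plasma cell marker sum (7 of 8) was highest of all 12 libraries in BDL_HDCA replicate 2, at 156, and lowest in BDL replicate 1, at 101. However, 1 of these markers was at 0 in BDL_HDCA replicate 2 and 3 were in BDL replicate 1, with none at 0 elsewhere. A high sum there is thus not a rise of each marker. Neutrophil and myeloid precursor markers (12 of 12) were at 80.3 and 36.6 in the pair and at 31.2 to 99.0 in the others. Hepatocyte markers summed to 61890 and 58814 in the pair, against 50154 to 61370 in the others. The part of these cells in the levels of the cell cycle genes was not tested.

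HDCA in Abcb4KO livers was compared with the same livers without it. None of the 35 genes tested passed, and 0 of 10805 genes did (percent called 0; limma on log2(FPKM + 1), two-sided, Benjamini-Hochberg over all genes tested, threshold 0.05). At an unadjusted p under 0.05 there were 61 genes, none of them among the 35. Run on recovered reads, limma-voom gave 0 calls and 47 genes at that unadjusted p. The estimates leaned low, with 33 of 35 negative and a median log2 fold change of -0.16, beside a median of -0.04 over all genes tested. Cdc20 averaged 2.05 ± 1.07 FPKM in Abcb4KO_HDCA and 3.36 ± 0.483 in Abcb4KO (SD, n = 3 each), a log2 fold change of -0.58 ± 0.66 (SE). Bub1b had -0.39 ± 0.31 and Ccne1 -0.18 ± 0.25, and on the other side Nusap1, a microtubule-binding protein, had 0.04 ± 0.35 and Tk1 0.02 ± 0.32 (limma adjusted p = 1 for each). Nusap1 and Tk1 turned negative without single libraries of these groups. Between libraries of the same number, Abcb4KO_HDCA was the lower for 34, 32 and 29 of the 42 genes in replicates 1, 2 and 3, where 42.8%, 68.9% and 67.5% of the genes tested were lower. E2f1 alone showed no overlap between the groups, lower in Abcb4KO_HDCA, where 4.6% of the genes tested were lower without overlap. Cholangiocyte markers were not called either, with 8 of 8 tested genes negative at a median of -0.26 and sums of 297 to 419 FPKM in Abcb4KO_HDCA and 366 to 572 in Abcb4KO. Erythroid markers were 6 of 6 negative at a median of -0.33, with 0 called. The 4 Y-linked genes were all negative at a median of -0.78, with 0 called, and were above traces in no Abcb4KO_HDCA library and in 1 of the 3 Abcb4KO libraries. The part of these in the lean was not tested.

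In the ligated livers HDCA also gave 0 calls, among the 35 genes and among all 10805 (percent called 0). There were 243 genes at an unadjusted p under 0.05, none of them among the 35, and limma-voom called 0, with 251. The estimates leaned high, with 30 of 35 positive, where 6351 of the 10805 genes tested were positive too. The median log2 fold change of the 35 was 0.10, beside 0.03 over all genes tested. Each group had 1 library of the low pair. Mki67 averaged 1.97 ± 1.02 FPKM in BDL_HDCA and 1.54 ± 1.36 in BDL (SD, n = 3 each; log2 fold change 0.34 ± 0.42 (SE), limma adjusted p = 1). Rrm2, the small reductase subunit, had 0.31 ± 0.40 and Tyms, thymidylate synthase, 0.13 ± 0.24. Tk1 had -0.34 ± 0.32, Kif11, a spindle kinesin, -0.10 ± 0.30 and E2f1 -0.06 ± 0.33. The sign of the median depended on a library: leaving out BDL_HDCA replicate 2 gave 0.46, leaving out BDL replicate 1 gave -0.43, leaving out BDL replicate 3 gave 0.50 and leaving out both of the low pair gave -0.05. Without that pair Tk1 was at 0.25 ± 0.19, and 14 of the 35 genes were positive and 21 negative, with 0 called and 217 of all genes tested at an unadjusted p under 0.05. No gene of the 42 had groups that did not overlap, where 3.43% of the genes tested were higher and 1.59% lower without overlap. Of the endothelial markers 0 of 10 were called and 10 were positive, at a median of 0.77, or 0.38 without the low pair, with sums of 122 to 140 FPKM in BDL_HDCA and 29.9 to 132 in BDL. Of the stellate cell and fibroblast markers 0 of 12 were called and 12 were positive, at a median of 0.55, or 0.42 without the pair. Erythroid markers were 6 of 6 positive at 0.55, with 0 called, and 5 of 6 at 0.39 without the pair. Their part was not tested.

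The difference between these HDCA effects, that in Abcb4KO minus that in BDL, was tested as an interaction term, in which the model and the length of HDCA exposure cannot be told apart. It was called for 0 of the 35 genes and 0 of 10805 (percent called 0; 200 at an unadjusted p under 0.05, none among the 35). The median was -0.30, with 33 of 35 negative, beside -0.07 over all genes tested, of which 7020 of 10805 were negative. Bub1b had -0.55 ± 0.43, Rrm2 -0.47 ± 0.56 and Uhrf1 -0.45 ± 0.56, against 0.36 ± 0.45 for Tk1 and 0.04 ± 0.49 for Nusap1 (SE; limma adjusted p = 1 for each). Without the low pair the median was -0.15, and without BDL replicate 1 alone it was 0.25.

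**Figure D3:**
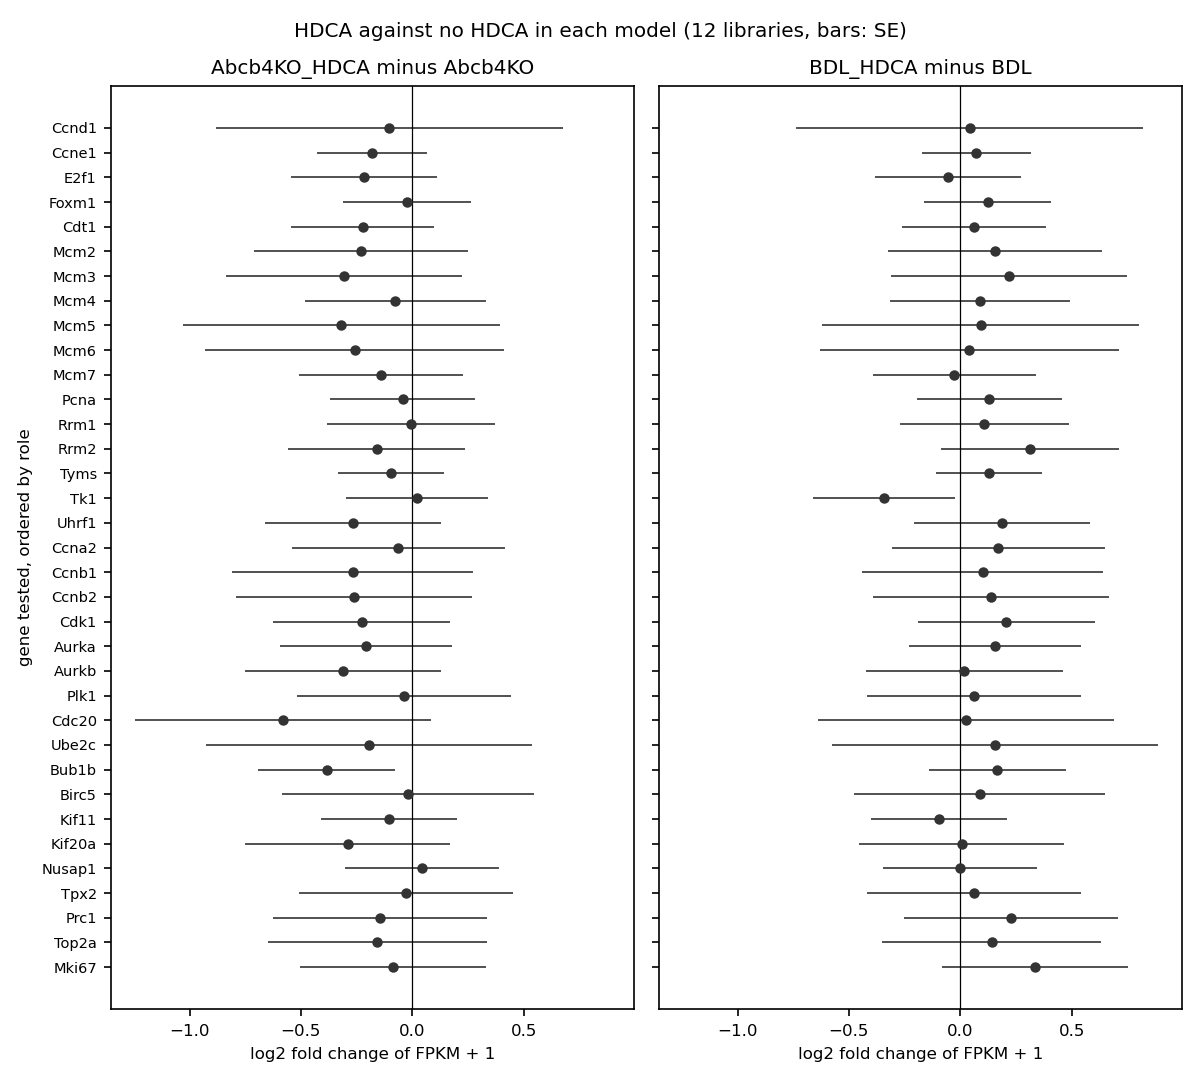
Log2 fold change of FPKM + 1 with its SE for the 35 genes tested, HDCA against no HDCA, in Abcb4KO (left) and BDL (right). None of the 35 passed in either model, 33 of 35 lie below 0 on the left and 30 of 35 above 0 on the right. Of the 10805 genes tested, 6920 were below 0 in the left comparison and 6351 above 0 in the right.

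The second question was how the models differ, first without HDCA. With all 12 libraries, 1746 of 10805 genes passed between Abcb4KO and BDL (16.2%; 1630 or 15.1% higher and 116 or 1.07% lower), and none of the 35 cell cycle genes did. None of the 35 had an unadjusted p under 0.05. Their median log2 fold change was 0.01, beside 0.25 over all genes tested. The role groups lay at 0.00 for G1 genes, 0.22 for licensing and helicase genes, 0.21 for S phase supply and -0.06 for the mitotic genes. Tyms averaged 2.13 ± 0.446 FPKM in Abcb4KO and 1.33 ± 0.677 in BDL (SD, n = 3 each; 0.46 ± 0.24 (SE), limma adjusted p = 0.186). Ccnd1 had 0.89 ± 0.78 and Rrm1 0.39 ± 0.38, against -0.27 ± 0.25 for Ccne1, -0.22 ± 0.29 for Foxm1 and -0.32 ± 0.48 for Plk1, the polo-like mitotic kinase. The adjusted p of these was 0.422 to 0.651. Under median-of-ratios scaling the median of all genes was -0.01 and that of the 35 was -0.13 (-0.32 with quantile normalization), with 1052 genes called, 671 higher and 381 lower. No gene of the 42 separated the groups, where 39.2% of the genes tested were higher and 3.12% lower without overlap.

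The same held between the models with HDCA. Of 10805 genes, 896 passed between Abcb4KO_HDCA and BDL_HDCA (8.29%; 795 or 7.36% higher and 101 or 0.935% lower), and none of the 35 did. The median of the 35 was -0.25, beside 0.20 over all genes tested (under median-of-ratios scaling -0.34, beside 0.00, with 340 genes higher and 292 lower), and that of the mitotic genes -0.40, with 18 of 18 negative. Ccne1 averaged 0.421 ± 0.0564 FPKM in Abcb4KO_HDCA and 1.11 ± 0.662 in BDL_HDCA (SD, n = 3 each; -0.52 ± 0.25 (SE), limma adjusted p = 0.189), and it was the one gene of the 42 whose groups did not overlap, where 4.55% of the genes tested were lower without overlap. Foxm1 had -0.37 ± 0.29 and Aurka, a centrosome kinase, -0.44 ± 0.39, against 0.36 ± 0.32 for Tk1, 0.24 ± 0.24 for Tyms and 0.74 ± 0.78 for Ccnd1. These genes missed the threshold. Other settings changed calls. Quantile normalization called Ccne1 in both comparisons (-0.64 untreated and -0.82 with HDCA). Array weights, which count libraries with a large spread less, called 9 of the 35 in each, all lower. With these weights 6.9% and 5.2% of the genes tested were called lower. The lowest weights went to BDL replicate 1 (0.134) and BDL_HDCA replicate 2 (0.171). This setting thus comes near to leaving out the low pair, and the direction of its calls is not independent of that.

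Without BDL replicate 1 and BDL_HDCA replicate 2, cell cycle genes fell in Abcb4KO relative to BDL, 8 of 35 lower and 0 higher. In this fit 2231 of 10805 genes passed (20.6%), 17.3% higher and 3.34% lower. Leaving out the libraries in which these genes are lowest raises the BDL means by construction, so the direction here is not independent of that choice. The median log2 fold change was -0.49 over the 35, -0.69 over the mitotic genes and -0.18 over the others, beside 0.17 over all genes tested. Ube2c was at 3.58, 3.64 and 2.45 FPKM in Abcb4KO and 8.23 and 8.36 in BDL replicates 2 and 3 (-1.15 ± 0.31, adjusted p = 0.0276, limma). Birc5 was at 1.80, 2.72 and 2.70 in Abcb4KO and 4.85 and 7.04 in BDL (-1.02 ± 0.24, adjusted p = 0.0176). Mcm5 was at 2.31, 3.15 and 3.60 in Abcb4KO and 5.22 and 8.44 in BDL (-0.94 ± 0.24, adjusted p = 0.0236). In each, all 3 Abcb4KO values were under both BDL values. Foxm1, the activator of mitotic genes, was called with the smallest p among them (-0.61 ± 0.14, adjusted p = 0.0151). The other 4 called were Plk1 (-0.90 ± 0.28), Ccna2 (-0.86 ± 0.21), which encodes the cyclin of S and G2 phase, Prc1 (-0.75 ± 0.22) and Aurka (-0.65 ± 0.18). By role, the calls were 1 of 4 G1 genes, 1 of 7 licensing and helicase genes, 0 of 6 supply genes, 4 of 9 mitotic cyclins and kinases, 1 of 2 checkpoint and passenger genes and 1 of 7 spindle genes. Of the 42 genes, 20 were lower in Abcb4KO without overlap, and 0 were higher, where 10.1% of the genes tested were lower and 45.1% higher.

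With HDCA and without the same pair, 10 of the 35 fell in Abcb4KO_HDCA relative to BDL_HDCA and 0 rose, where 1274 of 10805 genes passed (11.8%), 8.45% higher and 3.34% lower. The median was -0.60 over the 35, beside 0.10 over all genes tested. Mcm5 was at 1.79, 2.55 and 2.28 FPKM in Abcb4KO_HDCA and 8.15 and 4.63 in BDL_HDCA replicates 1 and 3 (-1.17 ± 0.24, adjusted p = 0.0178, limma). Prc1 was at 0.691, 1.45 and 1.62 in Abcb4KO_HDCA and 3.59 and 2.81 in BDL_HDCA (-0.92 ± 0.22, adjusted p = 0.0278). Uhrf1, which reads hemimethylated DNA behind the fork, was at 0.706, 0.957 and 0.777 in Abcb4KO_HDCA and 1.82 and 2.19 in BDL_HDCA (-0.73 ± 0.18, adjusted p = 0.0303). In these genes the Abcb4KO_HDCA libraries were all the lower ones. Ccna2 had -0.81 ± 0.21, Aurkb, the kinase of the passenger complex, -0.79 ± 0.20, Ccne1 -0.75 ± 0.17, Mcm2 -0.60 ± 0.15 and Foxm1 -0.57 ± 0.14. The remaining calls, at -0.85 to -0.75, were Cdk1, the kinase that starts mitosis, and Birc5. Of the 42 genes, 35 were lower without overlap, and 0 were higher, where 13.6% of the genes tested were lower and 35.3% higher. With all libraries it was 1 gene. Since BDL_HDCA replicate 2 is among the lowest pair for 40 of the 42, leaving it out raises their BDL_HDCA means by construction. The direction here is thus not independent of that choice.

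The untreated and the HDCA comparison share no library, but each was made without the library of its BDL arm in which most of these genes are lowest, so that they lean the same way is no independent evidence. Of the genes called lower, 5 were called in both (Foxm1, Birc5, Ccna2, Mcm5 and Prc1), 62.5% of the untreated list and 50% of the HDCA list. Over all genes 236 were called lower in both, 65.4% of each list, so the shares of the cell cycle genes are not above the background. Without the low pair, 32 of the 35 genes were lower in both, called or not, and Tyms was the one higher in both. The count of calls rested on few libraries and on the scaling. With median-of-ratios scaling it was 15 in each comparison, and with no filter on low values 3 in each, all lower. With BDL replicate 2 or 3 also left out it was 0 in the untreated comparison, each time with a lone BDL library assumed to vary like the other groups, and without Abcb4KO replicate 2 or 3 it was 5. It was 1 in the HDCA comparison with BDL_HDCA replicate 1 or 3 or Abcb4KO_HDCA replicate 1 also left out, 3 without Abcb4KO_HDCA replicate 2 and 6 without Abcb4KO_HDCA replicate 3. In the cases without BDL_HDCA replicate 1 or 3, BDL_HDCA is likewise a lone library under that assumption. Without Abcb4KO replicate 1, the one library of its model with Y-linked reads, it was 7 and 12. The Y-linked genes themselves differed between the models, although the labels give no sex. With all libraries 1 of 4 was called lower in Abcb4KO than in BDL, and 4 of 4 in Abcb4KO_HDCA than in BDL_HDCA. Genotype, surgery, this difference in Y-linked reads and any difference in age or sex cannot be told apart between these groups. Nor, with HDCA, can the length of exposure, 21 days in Abcb4KO_HDCA and 4 days in BDL_HDCA.

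**Figure D4:**
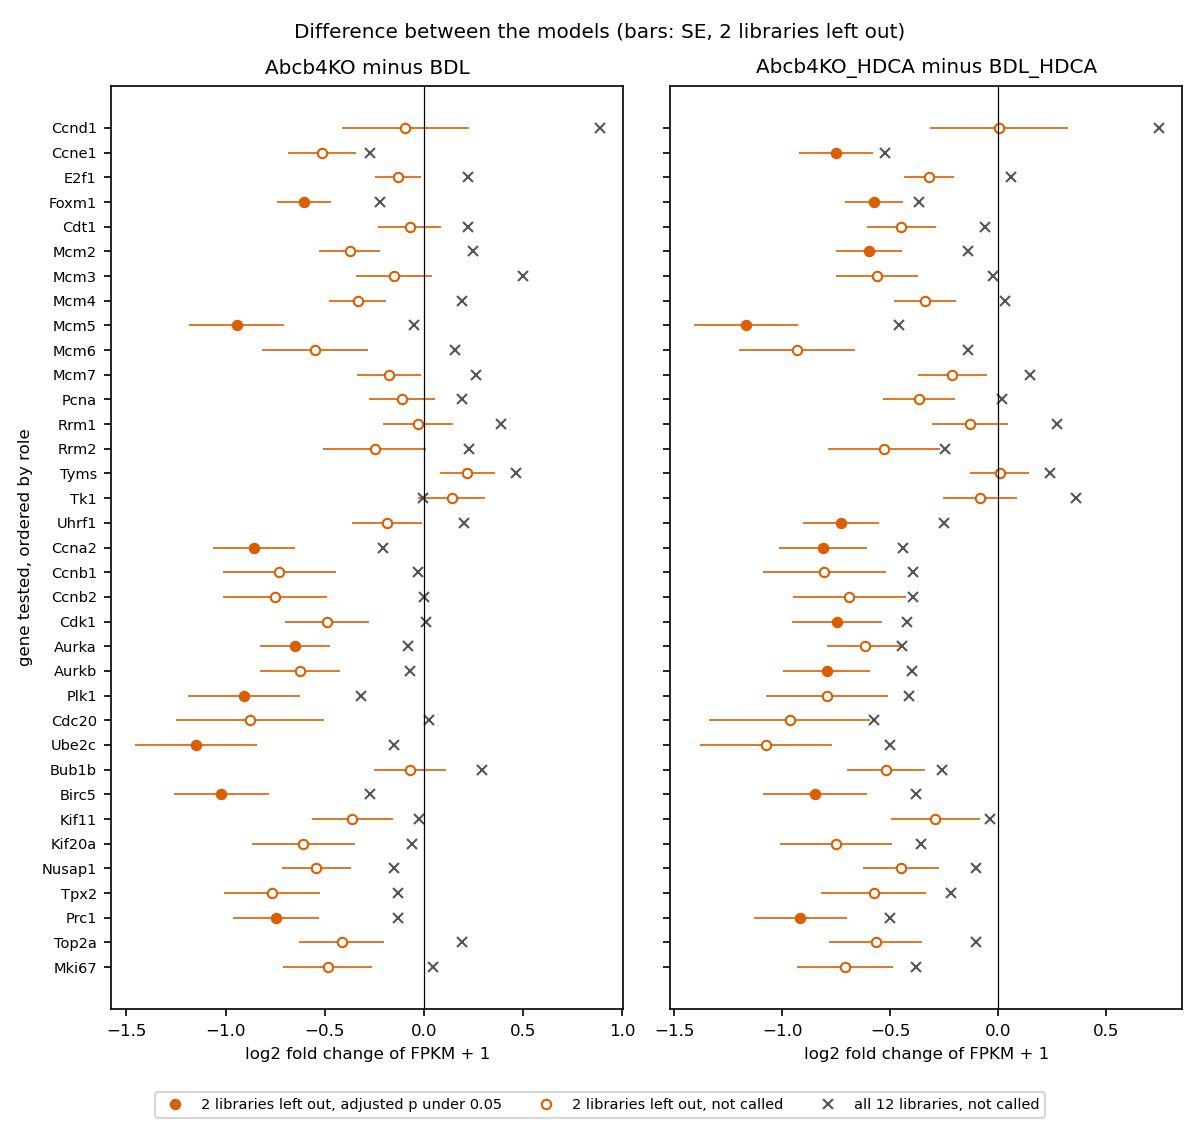
Log2 fold change of FPKM + 1 with its SE, Abcb4KO minus BDL without HDCA and with HDCA, for the 35 genes tested, with all 12 libraries and without BDL replicate 1 and BDL_HDCA replicate 2. With all libraries 0 genes passed in either comparison, and without the pair 8 and 10 passed, all lower.

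Other genes of the cycle give the setting. Of all genes tested, 15.1% were called higher and 1.07% lower untreated with all libraries, and 7.36% and 0.935% with HDCA. Without the low pair the shares were 17.3% and 3.34% untreated, and 8.45% and 3.34% with HDCA. None of 39 other replication genes tested passed between Abcb4KO and BDL or between Abcb4KO_HDCA and BDL_HDCA with all libraries. Without the low pair, 1 rose and 3 fell in the untreated comparison (Dbf4, the activator of the kinase Cdc7, Lig1, the replicative ligase, and Chaf1b, a histone chaperone subunit), and 3 fell with HDCA (Lig1, Gins2 and Pold2). Of 36 other mitotic genes, Cenpm, a centromere protein, fell in both with all libraries (-1.12 ± 0.23 and -0.97 ± 0.23). Without the pair 7 and 8 fell, and none rose. Of 14 genes of kinase inhibitors and pocket proteins, 4 rose and 2 fell untreated, and 4 rose and 1 fell with HDCA. Btg2, an antiproliferative gene induced by p53, fell in both (-1.76 ± 0.20 and -1.38 ± 0.20), at 5.49, 6.74 and 6.17 FPKM in Abcb4KO_HDCA, 6.60, 6.96 and 6.57 in Abcb4KO, 20.2, 11.9 and 22.1 in BDL_HDCA, and 20.3, 27.9 and 27.6 in BDL. Btg2 thus separated the models with every library in place, the low pair included. Rbl2, the pocket protein p130, rose in both (0.51 ± 0.11 and 0.69 ± 0.11). Cdkn1a, the inhibitor p21, was at 17.3, 26.4 and 38.8 in Abcb4KO_HDCA, 12.8, 10.3 and 19.5 in Abcb4KO, 37.5, 99.7 and 31.2 in BDL_HDCA, and 50.7, 59.0 and 41.0 in BDL. Its highest value lay in BDL_HDCA replicate 2, one of the low pair. The other library of the pair, BDL replicate 1, lay between BDL replicates 2 and 3. Without HDCA, all Abcb4KO values of Cdkn1a were below all BDL values, and with HDCA the groups overlapped.

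Among 24 other cyclins, kinases and E2F, DREAM and Myc factors, 3 rose untreated (Ccnd2 by 1.18 ± 0.25, Tfdp2 and Cdk7) and none passed with HDCA. Without the low pair Mybl1, A-Myb, fell in both (-1.32 ± 0.15 and -1.11 ± 0.15), which rests on the same choice of libraries. Among 21 mitogens and their receptors, 5 rose untreated, with Hgf, the hepatocyte growth factor, at 1.47 ± 0.33. With HDCA 1 rose, Lifr, the receptor of leukemia inhibitory factor, at 1.27 ± 0.23. Since 15.1% of all genes tested rose untreated and 7.36% with HDCA, these counts are not read as a result about the lists. For HDCA against no HDCA in either model, 0 genes of these 5 lists passed. At an unadjusted p under 0.05 there were 4 of the 14 kinase inhibitor and pocket protein genes for HDCA in BDL. For HDCA in Abcb4KO there was 1 of the 39 other replication genes. The remaining lists had none in either model. Beside the model differences, stellate cell and fibroblast markers summed to 304 to 415 FPKM in Abcb4KO_HDCA, 241 to 483 in Abcb4KO, 137 to 236 in BDL_HDCA and 69.5 to 135 in BDL, with no marker of the 12 at 0. Cholangiocyte markers summed to 297 to 419 FPKM in Abcb4KO_HDCA, 366 to 572 in Abcb4KO, 141 to 374 in BDL_HDCA and 130 to 421 in BDL. Their part in the levels of the cell cycle genes was not tested.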

How the data were processed

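Liver polyA RNA was sequenced in 12 libraries, 3 in each of 4 groups taken from the titles. Tools in the submitters' processing notes are fastp, HISAT2 2.0.5, featureCounts 1.5.0-p3, CASAVA 1.8 and DESeq2 1.20.0, with the build GRCm38 (mm10). Their order, the annotation release and the strand setting of the counting were not given in the sources at hand, so antisense overlaps and near-identical copies may share reads. The authors deposited FPKM for 16970 gene symbols. Reads were recovered from the FPKM steps: within 0.02 of a read, 16968 genes (99.99%) gave whole reads in all libraries. Intervals and floors cover counting error only.

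limma 3.58.1 (R 4.3.3) with trend was fitted to log2(FPKM + 1) of 10805 genes with at least 1 FPKM in at least 3 libraries, as 4 group means over 12 libraries (8 residual degrees of freedom). Fold changes on this scale understate the change of low genes. Tests were two-sided, with Benjamini-Hochberg adjustment over all genes tested and calls at an adjusted p under 0.05. limma-voom on recovered reads, an alternative, called 0 genes for HDCA in Abcb4KO, 0 for HDCA in BDL, 0 for their difference, 1585 between the untreated models and 670 between those with HDCA. The fit was also run on simulated data, with means and spread taken without the low pair. That run therefore does not show how the fit behaves with the spread that the pair brings.

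The genes, lists and rules were chosen with earlier results of these data known. Named were the called genes (of more than 8, the 8 with the smallest p), the 3 most abundant of each role, the 3 with the smallest p in each direction, and up to 3 of each other list. Deviations of same-numbered libraries correlated at 0.312 to 0.548 between Abcb4KO_HDCA and Abcb4KO. The numbers were therefore taken to pair these in the counts by replicate, which rests on the values alone. The main fit and its p-values do not use the pairing. In replicate 1 the pairing joins an Abcb4KO library with Y-linked reads (20.1 FPKM) to an Abcb4KO_HDCA library with traces (0.016 FPKM). Positions are GRCm38 (GENCODE M21), promoters RefSeq.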

Additional observations from a re-analysis of the deposited data

How the results depend on the processing

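For HDCA in either model and for the difference of these effects, 0 cell cycle genes passed under every setting run, with 1 gene of all tested called for HDCA in BDL under array weights. Between the untreated models the count over all genes was 941 with quantile normalization, 1052 with median-of-ratios scaling, 4947 with array weights, 729 with the compared libraries alone and 489 (without Abcb4KO replicate 2) to 2346 (without BDL_HDCA replicate 2) when single libraries were left out. With HDCA it was 2750 with array weights, 542 with the compared libraries alone, and 167 (without Abcb4KO_HDCA replicate 2) to 1550 (without BDL replicate 1) when single libraries were left out. With the replicate number as a block it was 589. The block changed no call of a cell cycle gene, and same-numbered libraries of the compared models correlated at -0.244 to -0.149 untreated and -0.228 to -0.0344 with HDCA, so they share only a number, as do BDL_HDCA and BDL at -0.43 to 0.431.

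Cell cycle genes called in the untreated and the HDCA comparison were 1 and 1 with quantile normalization and 9 and 9 with array weights. They were 8 and 10 without the low pair, and 0 and 0 without any single library. Array weights counted the low pair least, so their calls and those without the pair are not separate evidence. These combinations were added after seeing the data: without the pair and with no filter the counts were 3 and 3, with median-of-ratios scaling 15 and 15, with limma-voom 7 and 10, and with a pseudocount of 0.1 they were 6 and 10. Without the pair and another library the untreated count was 0 to 11, with 5 without Abcb4KO replicate 2 or 3, and the HDCA count 1 to 12, with 3 without Abcb4KO_HDCA replicate 2 and 6 without Abcb4KO_HDCA replicate 3. The cause of these shifts was not tested.

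Signs of uncalled estimates that changed follow as log2 values. For HDCA in BDL, Tk1 was 0.38 with array weights, 0.25 without the pair and -0.63 to 0.10 without single libraries. E2f1 was 0.0099 with array weights and -0.41 to 0.33 without single libraries, where Mki67 was -0.19 to 0.71, Rrm2 -0.16 to 0.64, Tyms -0.12 to 0.36 and Kif11 -0.43 to 0.17. For HDCA in Abcb4KO, Nusap1 was -0.0767 to 0.15 and Tk1 -0.11 to 0.0908 without single libraries. For the difference, Tk1 was -0.25 with array weights, -0.23 without the pair and -0.084 to 0.65 without single libraries, where Nusap1 was -0.30 to 0.44 and Rrm2 -0.80 to 0.0033. Between untreated models, Ccnd1 was -0.0931 without the pair and -0.0931 to 1.43 without single libraries, Rrm1 -0.028 and -0.028 to 0.75, Foxm1 0.32 with limma-voom and -0.61 to 0.0477 without single libraries, and Plk1 -0.90 to 0.0635. With HDCA, Tk1 was -0.11 with array weights, -0.0853 without the pair and -0.0853 to 0.65 without single libraries, and Tyms -0.0165 with quantile normalization. The 349 reads of the 22 mitotic genes in BDL replicate 1 limit the precision of their levels in that library.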
